A study of Arabidopsis thaliana with 12 samples.

Results

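Leaf RNA of Arabidopsis thaliana was compared between a line labelled anac082 and a line labelled anac090, with 3 libraries each, 6 of the 12 libraries of the series. The libraries were chosen by their labelled genotype. By their labels, both lines are mutants in the Columbia background, from the SALK, SAIL and GABI-KAT collections of T-DNA insertion lines, and every library is from leaves at 18 days of age. The sources used here do not give which collection each line came from or where its insertion lies. The other libraries, 3 from a line labelled anac017 and 3 from the Columbia wild type, entered the filter and the shared estimate of the spread but not the contrast between the lines. Wild type levels are given as context, and the wild type libraries are an arm of the tests against wild type at the end. The study asks how NAC networks bear on the timing of cell death in ageing plants, and the comparison of these lines asks where their leaf transcriptomes differ. The labels do not state whether the libraries within a line derive from different plants; p-values therefore reflect the scatter among these libraries alone, and that scatter could be technical.

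NAC proteins are a large family of transcription factors found in plants, with a conserved DNA-binding domain at the N terminus and a variable C-terminal part. ANAC082, also named VNI1, is known as a mediator of the response to disturbed ribosome synthesis, and ANAC017 is a membrane-bound factor that carries signals from stressed mitochondria to the nucleus. Leaf ageing draws on salicylic acid (SA), a defence hormone made largely through ICS1 and perceived by the NPR proteins, and on reactive oxygen species (ROS), which act as signals and damage cells. Jasmonate and ethylene act on a separate defence branch marked by the plant defensins of the PDF1.2 group.

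The promoters shown here belong to QQS, a gene that passed the test, and to a pair of the defensin genes described below. Each run is the 250 bases before the annotated start, read from the RefSeq sequence of build TAIR10.1 in the direction of transcription. QQS is at chr3:12348797-12349046 on the + strand, PDF1.2 at chr5:17907639-17907888 on the - strand and PDF1.2b at chr2:11088873-11089122 on the + strand. Capitals mark the TGA site TGACG in QQS and the GCC box GCCGCC in the defensin genes. Both strands were searched, and overlap with other motifs was not scored.
QQS: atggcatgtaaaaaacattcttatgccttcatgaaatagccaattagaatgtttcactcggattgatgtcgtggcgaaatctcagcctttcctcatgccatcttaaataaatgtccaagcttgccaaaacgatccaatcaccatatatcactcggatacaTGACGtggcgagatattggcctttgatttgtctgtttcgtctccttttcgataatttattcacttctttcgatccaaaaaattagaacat 
PDF1.2: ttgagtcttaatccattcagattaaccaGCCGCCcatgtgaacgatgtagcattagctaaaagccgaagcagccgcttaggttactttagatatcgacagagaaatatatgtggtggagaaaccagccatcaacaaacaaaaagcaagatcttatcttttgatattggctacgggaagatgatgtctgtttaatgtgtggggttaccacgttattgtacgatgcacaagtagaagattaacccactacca 
PDF1.2b: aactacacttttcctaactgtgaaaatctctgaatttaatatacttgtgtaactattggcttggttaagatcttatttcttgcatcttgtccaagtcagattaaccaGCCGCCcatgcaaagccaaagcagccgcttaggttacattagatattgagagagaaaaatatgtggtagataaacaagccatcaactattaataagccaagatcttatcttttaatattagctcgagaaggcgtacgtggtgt

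The deposited values are log2 values that were quantile normalized between libraries, treated as log2(abundance + 1). Read depth is therefore unknown, and a shift of all genes in a line would not be seen. Of the genes in the table, 16817 reached an average of 1 on the back-transformed scale over the 12 libraries and were tested. On the first principal component, with 51.0% of the variance, the libraries labelled anac082 lay at -27.0, 5.70 and 3.60, and the libraries labelled anac090 at 15.9, -12.7 and 74.1, against -35.3, -35.6 and -29.7 in wild type. Replicate 1 labelled anac082 thus lay near wild type, and replicate 3 labelled anac090 lay apart from all other libraries. These 2 libraries were singled out from these same values, so results without them are descriptions and not tests. Where they held opposite extremes of their lines, leaving them out moves the difference in a direction fixed in advance. Values that moved by over 1.5 times without these 2 libraries are given with and without them for most of the lists and genes described below, but not for all. The 3 root markers and the 4 seed markers were listed at 0 in all 6 libraries, and the back-transformed values of the 24 photosynthesis genes summed to 41900 to 42200 in libraries labelled anac082 and 35900 to 41700 in libraries labelled anac090. A difference of the log2 means of CCA1 and LHY, which peak at dawn, and 5 evening clock genes was 0.69, 2.35 and 2.25 in libraries labelled anac082 and 0.62, 1.86 and 1.89 in libraries labelled anac090, against 1.5, 3.22 and 2.94 in wild type, so replicate 1 was the lowest of each of these groups. The part of the clock in the results was not tested.

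The gene targeted in the first line was higher, not lower, in the libraries that carry its label. ANAC082 (AT5G09330, chromosome 5, 2892365 to 2895422) had log2 values of 9.79, 9.75 and 9.94 in libraries labelled anac082, against 5.32, 5.20 and 5.61 in libraries labelled anac090 and 4.98 to 5.07 in wild type. The groups did not overlap, and the difference of 4.45 ± 0.11 (SE) was 21.9-fold (limma adjusted p = 6.16e-09). The RNA of this gene therefore goes against the label if the insertion is read as a loss of transcript, and every direction given below is that of libraries with these labels. The table holds a value per gene, not per exon, so a transcript that is not the native mRNA cannot be told apart from it. The 5 tested genes within 10 kb of ANAC082 had differences of -1.57 to 0.70, the lowest adjusted p among them being 0.358 by limma.

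ANAC090 (AT5G22380, chromosome 5, 7408777 to 7410102) had log2 values of 2.51, 2.39 and 2.44 in libraries labelled anac082, against 1.22, 0.90 and 0.72 in libraries labelled anac090 and 1.35 to 1.75 in wild type. All 3 libraries labelled anac090 were below every other library of this comparison and below wild type. The difference of 1.5 ± 0.30 (SE) had a limma adjusted p of 0.185, over the threshold of 0.05. It did not pass under any of 20 alternatives, with limma adjusted p of 0.064 to 0.535, and passed only with library quality weights (limma adjusted p = 0.00361), which rest on a single library. ANAC017 averaged 5.91 ± 0.07 in libraries labelled anac082 and 6.13 ± 0.32 in libraries labelled anac090 (SD, n = 3 each), and its difference of -0.21 ± 0.14 did not pass (limma adjusted p = 0.534). The ANAC017 difference was -0.10 without both libraries that stood apart.

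**Figure D1:**
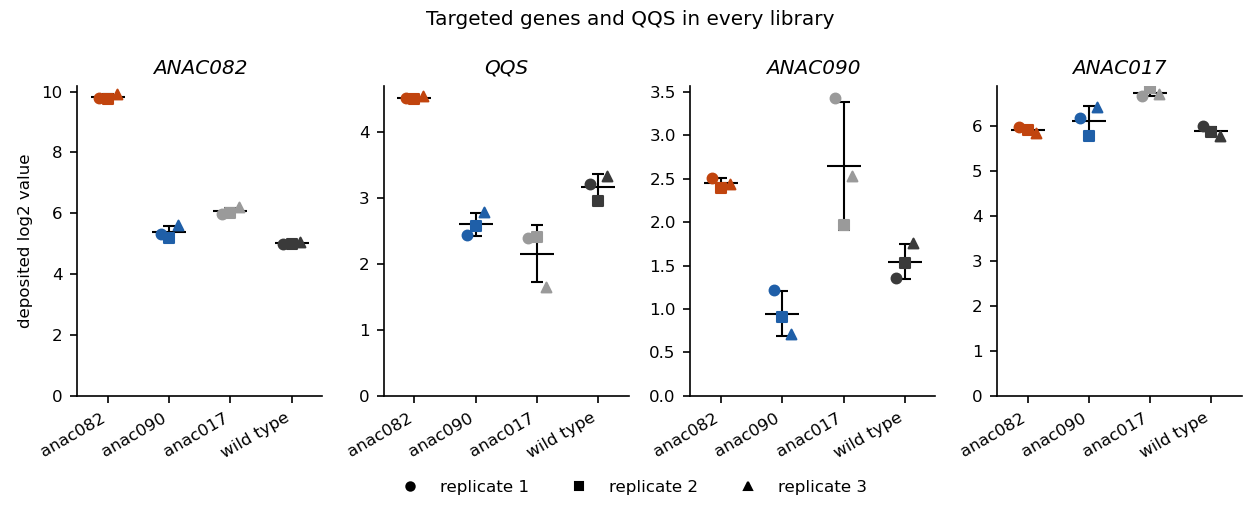
Deposited log2 value of ANAC082, QQS, ANAC090 and ANAC017 in every library, by labelled genotype. Points are libraries, horizontal lines are means and whiskers are SD over 3 libraries. The ANAC082 values of the libraries labelled anac082 lie at 9.75 to 9.94, above all others, and the ANAC090 values of the libraries labelled anac090 lie at 0.72 to 1.22, below all others.

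In all, 2 genes were higher in libraries labelled anac082 (0.0119% of the genes tested) and 0 were lower (0%), so that 0.0119% passed in either direction by limma with Benjamini-Hochberg adjustment over all genes tested. At an unadjusted p under 0.05 there were 1027 higher genes (6.11%) and 886 lower genes (5.27%), or 11.4% in all. All 3 values of the line labelled anac082 lay above all 3 of the line labelled anac090, here called separated, in 1248 genes (7.42%) and below them in 868 genes (5.16%). Differences of at least 2-fold were more frequent downward, in 213 genes against 42 upward. Without replicate 3 labelled anac090 these numbers were 123 and 28, without replicate 1 labelled anac082 102 and 48, and without both 133 and 61. The median difference over all genes tested was 0.02.

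QQS (AT3G30720, chromosome 3, 12349047 to 12349832), an orphan gene known from Arabidopsis thaliana that affects how carbon is shared between starch and protein, was the other gene past the threshold. It had log2 values of 4.51, 4.49 and 4.55 in libraries labelled anac082, against 2.44, 2.58 and 2.78 in libraries labelled anac090 and 2.96 to 3.33 in wild type. The libraries of each line were close together and the lines did not overlap, with wild type in between. The difference of 1.92 ± 0.19 (SE) was 3.78-fold (limma adjusted p = 0.00654). The call was lost without replicate 1 labelled anac082 (adjusted p = 0.0601), without replicate 2 labelled anac082 (0.0593) and without both libraries that stood apart (0.0693), where the difference was 1.92 to 2.02; the adjusted p by limma ran between 0.000221 and 0.0693 over the alternatives other than library quality weights. The TGACG match printed above was present in 19.6% of the promoters of 16330 tested protein-coding genes.

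Among the separated genes with a mean above the median of all genes, those with the smallest p on the higher side after ANAC082 were BAM2, a beta-amylase, and AT1G76955. BAM2 had 4.96, 5.0 and 5.0 in libraries labelled anac082, against 4.47, 3.93 and 4.27 in libraries labelled anac090 and 4.74 to 4.84 in wild type. Its difference of 0.76 ± 0.12 had a limma adjusted p of 0.0941. VTC4, an enzyme of ascorbate synthesis, had 5.75, 5.83 and 6.05 in libraries labelled anac082, against 5.11, 5.43 and 4.83 in libraries labelled anac090. These values did not overlap, and the libraries labelled anac082 lay at the wild type level of 5.72 to 5.99. The other genes of this group, among them MYB48, ICR2, the photosystem protein PSBP2, the RING protein XERICO, the organellar tRNA synthetase OVA1 and ABIL4, had differences between 0.32 and 0.84, with limma adjusted p between 0.0941 and 0.282.

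On the lower side, the smallest p was that of HIS1-3, a linker histone induced by drought. It had 4.02, 4.27 and 3.47 in libraries labelled anac082, against 5.57, 5.58 and 5.38 in libraries labelled anac090 and 4.91 to 5.58 in wild type. The libraries labelled anac082 were below every library labelled anac090 and below wild type, and the difference of -1.59 ± 0.23 had a limma adjusted p of 0.0941. ATEXO70B2, a subunit of the exocyst complex with a role in immunity, had 4.47, 4.95 and 4.52 in libraries labelled anac082, against 5.42, 5.4 and 5.72 in libraries labelled anac090 and 4.04 to 4.28 in wild type. Here the lines also did not overlap, but both lay above the wild type level, and the difference was -0.87 ± 0.14 (limma adjusted p = 0.0941). SIB1, a partner of WRKY factors, FLOT1, a flotillin of the plasma membrane, PFD1, a prefoldin subunit, and the calcium-dependent kinase CPK5 were separated too, with differences of -0.63, -1.24, -0.86 and -0.44 and limma adjusted p of 0.151 to 0.24. FLOT1 was at -0.77 without both libraries that stood apart.

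Genes outside that rule were picked after their values were seen. AMY1, an alpha-amylase, had 3.93, 4.36 and 4.78 in libraries labelled anac082, against 1.52, 1.32 and 2.95 in libraries labelled anac090 and 2.39 to 2.61 in wild type, and its difference of 2.43 ± 0.44 had a limma adjusted p of 0.147. AT3G49340 had 2.80, 4.86 and 4.42 in libraries labelled anac082, against 1.41, 1.21 and 1.56 in libraries labelled anac090. AIG1, a gene induced by a bacterial effector, had 1.90, 4.34 and 4.14 in libraries labelled anac082, against 6.02, 5.14 and 8.05 in libraries labelled anac090, and its difference of -2.94 ± 0.80 was -1.34 without both libraries that stood apart. AT1G43590 had 3.16, 3.06 and 2.87 in libraries labelled anac082, against 1.81, 2.09 and 1.81 in libraries labelled anac090 and 1.87 to 2.26 in wild type, and its difference of 1.13 ± 0.15 had a limma adjusted p of 0.0676, which fell under the threshold with a pseudocount of 5 and without replicate 2 labelled anac090. With all libraries and the deposited scale none of these 4 genes passed, although all were separated. AMY1 passed without replicate 3 labelled anac090.

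**Figure D2:**
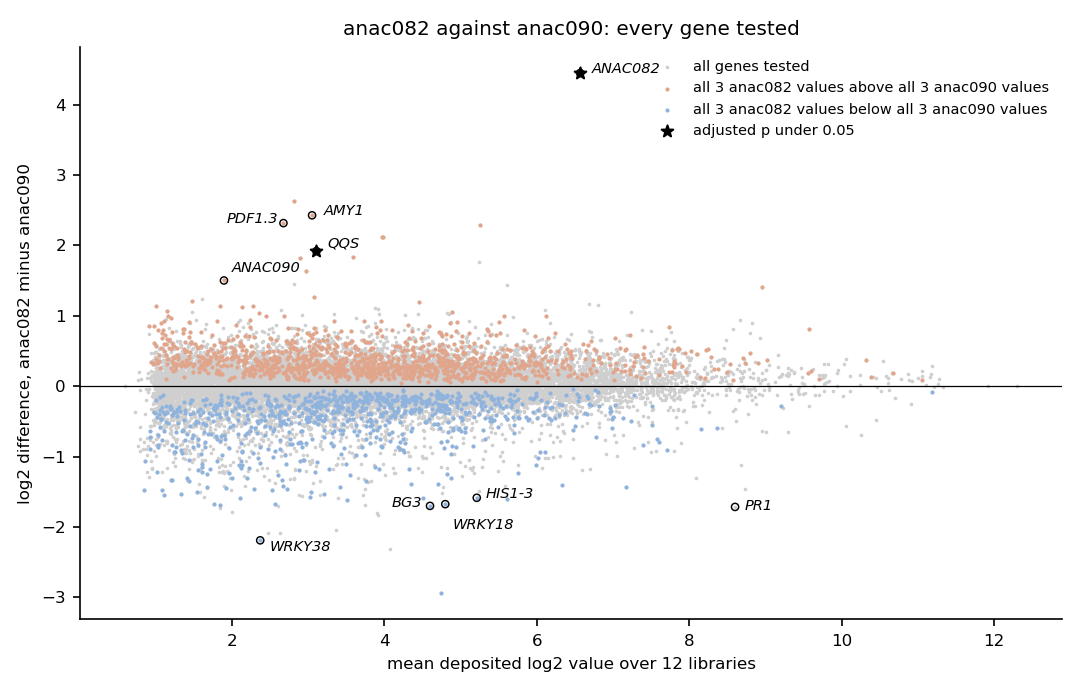
Log2 difference, anac082 minus anac090, against the mean deposited log2 value over 12 libraries for each of the 16817 genes tested. Orange and blue points are genes with all 3 anac082 values above or below all 3 anac090 values, stars are genes with an adjusted p under 0.05 by limma, and circles mark genes named in the text. Only ANAC082 and QQS carry a star, and more genes lie below -1 (213) than above 1 (42).

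The gene lists follow, as counts beside all genes tested, of which 46.5% had a negative difference. At an unadjusted p under 0.05 by limma, 5.27% of all genes were lower and 6.11% higher. On the lower side 5.16% were separated, and on the higher side 7.42%. Members and lists were chosen with earlier results of these data known, so these counts are descriptions and not tests. Apart from ANAC082 and QQS no member of a list passed the threshold. In bulk leaves, fewer cells of a type and less RNA per cell cannot be told apart. The SA-responsive defence list had the lowest median among the lists with more than 3 tested members, -1.31. Of its 20 members, all tested, 18 were negative, 11 had an unadjusted p under 0.05 on the lower side and 0 on the higher side, and 7 were separated, all lower. WRKY18, a transcription factor of SA defence, had 4.18, 4.83 and 4.23 in libraries labelled anac082, against 5.69, 5.58 and 7.0 in libraries labelled anac090 and 3.53 to 3.93 in wild type. The lines did not overlap and both were above wild type, with a difference of -1.68 ± 0.32 (limma adjusted p = 0.164) that was -1.11 without both libraries that stood apart. WRKY38, a further WRKY factor of this response, had 0.74, 2.65 and 1.68 in libraries labelled anac082, against 3.52, 3.36 and 4.77 in libraries labelled anac090. BG3, a beta-glucanase, and WRKY70, which acts where SA and jasmonate signals meet, had differences of -1.70 and -1.43 and were separated as well, and NIMIN1 and GRXC9, induced early by SA, had -1.70 and -1.37 without separation, a pair picked after their values were seen. The differences were -1.27 for WRKY38, -1.07 for BG3, -0.79 for WRKY70, -0.70 for NIMIN1 and -0.77 for GRXC9 without both libraries that stood apart.

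The abundant PR genes of the list overlapped between the lines. PR1, the usual marker of SA responses, had 6.66, 9.17 and 9.52 in libraries labelled anac082, against 10.22, 8.93 and 11.35 in libraries labelled anac090 and 5.57 to 7.13 in wild type. The lines overlapped, and the difference of -1.72 ± 0.79 was -0.23 without both libraries that stood apart. BGL2 had 8.57, 9.94 and 10.23 in libraries labelled anac082, against 8.86, 7.68 and 10.14 in libraries labelled anac090, and PR5 had 7.96, 9.55 and 9.87 in libraries labelled anac082, against 8.61, 7.08 and 9.74 in libraries labelled anac090. Both overlapped, with differences of 0.69 ± 0.56 and 0.65 ± 0.64 that were 1.82 and 1.87 without both libraries, and no adjusted p of the 3 genes was under 0.445 by limma. PR1, BGL2 and PR5 were picked after their values were seen.

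The mean log2 level of the SA-responsive list was 4.71, 5.78 and 5.32 in libraries labelled anac082, against 6.18, 5.49 and 7.12 in libraries labelled anac090 and 4.20 to 4.6 in wild type. Replicate 2 labelled anac082 lay above replicate 2 labelled anac090, so the list as a whole overlapped between the lines. The median was -0.98 without replicate 1 labelled anac082, -0.90 without replicate 3 labelled anac090 and -0.62 without both, with 16 of 20 members negative. In that last setting 6 members were lower and 2 higher at an unadjusted p under 0.05, against 3.07% lower and 4.41% higher among all genes tested, and the 2 higher members were at least 2-fold higher. Of the 20 promoters, 8 held TGACG (40.0%, against 19.6% of all), 4 held a W box, TTGACC or TTGACT (against 28.2% of all), and 0 held a GCC box.

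Genes of SA synthesis had a smaller difference, which was not kept without the libraries that stood apart. Those libraries held the lowest mean level labelled anac082 and the highest labelled anac090 of this list. Leaving them out thus raises the list by construction. The median over 16 tested members was -0.40, with 13 negative, but 0.09 without both of these libraries, with 6 negative. ICS1, the main enzyme of SA synthesis and picked after its values were seen, had 4.32, 5.70 and 5.27 in libraries labelled anac082, against 5.51, 4.85 and 6.81 in libraries labelled anac090 and 3.81 to 4.61 in wild type. The lines overlapped, and the difference of -0.62 was 0.31 without both libraries. The transcription factors SARD1 and CBP60G, which act on ICS1, had differences of -1.25 ± 0.40 and -1.20 ± 0.45, and only SARD1 was separated, with 3.90, 4.98 and 4.67 in libraries labelled anac082, against 5.45, 5.07 and 6.78 in libraries labelled anac090. Without both libraries these differences were -0.43 and -0.33. NDR1, a membrane protein needed for resistance signalling, was separated at -0.77 and was at -0.52 without both libraries. PAL2, of the phenylpropanoid route, was separated on the higher side at 0.36.

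The 5 tested genes of SA breakdown and conjugation were all negative, with a median of -0.37, but 3 of 5 were positive without both libraries that stood apart. FMO1 and ALD1, which are among the enzymes that make N-hydroxypipecolic acid for systemic immunity, gave differences of -1.73 and -1.59. FMO1 had 0.20, 2.01 and 1.83 in libraries labelled anac082, against 2.37, 1.34 and 5.53 in libraries labelled anac090, so that a single library, replicate 3 labelled anac090, held most of the distance. Without it the FMO1 difference was -0.51, and without both libraries 0.06. The ALD1 difference was 0.13 without both libraries, and the median of the pair, -1.66 with all libraries, was then 0.10.

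The list of ROS and stress regulators had a smaller median, and its mean level separated the lines. The mean levels of the defensin list and of the intracellular receptors, described below, did not overlap between the lines either. Its mean log2 level was 3.70, 3.80 and 3.64 in libraries labelled anac082, against 4.11, 3.97 and 4.24 in libraries labelled anac090, and 3.06 to 3.19 in wild type. The lines did not overlap, and both lay above all wild type libraries. Of 20 tested members, 17 were negative with a median of -0.32, 4 were lower at an unadjusted p under 0.05 and 6 were separated, all lower. Among all genes tested, 5.27% were lower at that p and 5.16% were separated lower. The median of this list was -0.23 without replicate 3 labelled anac090 and -0.32 without both libraries that stood apart, where 18 of 20 were negative.

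AZF1, a zinc finger repressor, led this list with 1.96, 2.17 and 1.64 in libraries labelled anac082, against 2.90, 2.93 and 3.44 in libraries labelled anac090 and 1.12 to 1.45 in wild type. No values overlapped between the 3 groups, and the difference of -1.16 ± 0.23 (limma adjusted p = 0.177) was -1.01 without both libraries. ZAT7, a related zinc finger, had a difference of -1.60 and was separated, and WRKY25, a heat and stress regulator, had -0.43 and was separated. Without both libraries ZAT7 was at -0.84 and WRKY25 at -0.08. BAP1, an inhibitor of cell death, had -1.33 with overlap, and this was -0.32 without both libraries. Genes that scavenge ROS had a median of 0.03 over 16 tested members, 9 positive and 7 negative, with CSD3, a superoxide dismutase, at 0.55 and at 0.12 without both libraries.

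**Figure D3:**
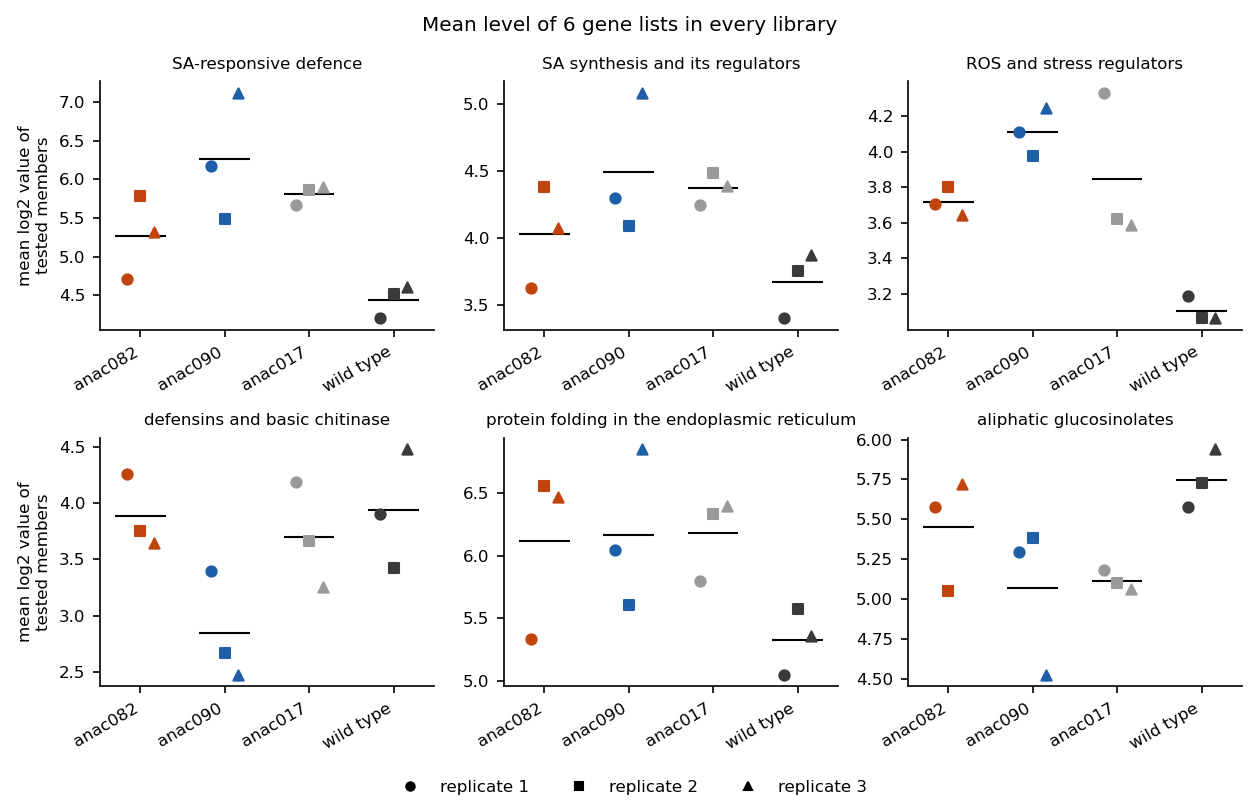
Mean deposited log2 value of the tested members of 6 gene lists in every library, by labelled genotype. Points are libraries, shaped by replicate number, and horizontal lines are group means. The ROS and stress regulators of the libraries labelled anac082 lie at 3.64 to 3.80, below all libraries labelled anac090, while the SA lists and the endoplasmic reticulum list overlap between these lines.

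The mitochondrial dysfunction list, which responds to ANAC017, had a median of -0.19 over 12 tested members, and 0.10 without both libraries that stood apart. NDA2, an alternative dehydrogenase, had the smallest p in it at -0.74 with overlap and was at -0.26 without both libraries. Senescence-associated genes had a median of -0.49 over 16 tested members, with 12 negative, 6 lower at an unadjusted p under 0.05 and 4 separated, all lower. Of all genes tested, 5.27% were lower at that p and 5.16% were separated lower. The median of the senescence list was -0.02 without both libraries. SAG20 had 7.17, 7.03 and 7.08 in libraries labelled anac082, against 7.57, 7.39 and 7.78 in libraries labelled anac090 and 6.83 to 7.13 in wild type. These lines did not overlap, and its difference of -0.49 was -0.43 without both libraries. SAG14, a blue copper protein, and YLS9, a gene of the NDR1 family, were separated at -1.41 and -1.59, and these values shrank to -0.60 and -0.43 without both libraries.

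Among 32 tested NAC genes, 23 were negative with a median of -0.24. On the lower side 9 had an unadjusted p under 0.05 and 7 were separated, against 5.27% and 5.16% of all genes tested. On the higher side these counts were 2 and 3, against 6.11% and 7.42% of all genes tested. The positive end was held by ANAC082 and ANAC090 themselves. NAC036 had 5.83, 5.95 and 6.07 in libraries labelled anac082, against 6.85, 6.40 and 7.66 in libraries labelled anac090 and 5.04 to 5.33 in wild type. NAC016, a regulator of leaf yellowing, had 2.38, 2.60 and 3.18 in libraries labelled anac082, against 3.65, 3.27 and 4.45 in libraries labelled anac090 and 1.88 to 2.05 in wild type. For both genes the libraries labelled anac082 lay between wild type and the libraries labelled anac090, and the differences were -1.02 ± 0.27 and -1.07 ± 0.29 (limma adjusted p = 0.357 each). Without both libraries that stood apart they were -0.61 and -0.57, and the list median was -0.02.

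The defensin list had the highest median, 1.19 over 8 members, and it was carried by 4 defensin genes. PDF1.3 had 3.92, 3.32 and 3.25 in libraries labelled anac082, against 2.1, 1.06 and 0.38 in libraries labelled anac090 and 3.11 to 4.31 in wild type. PDF1.2 had 6.32, 5.96 and 5.53 in libraries labelled anac082, against 4.97, 3.63 and 2.32 in libraries labelled anac090 and 5.35 to 7.27 in wild type. For both genes the libraries labelled anac090 were low and the libraries labelled anac082 lay within or near the wild type range. The differences were 2.32 ± 0.48 for PDF1.3, 2.11 ± 0.50 for PDF1.2b, 2.30 ± 0.64 for PDF1.2 and 2.12 ± 0.61 for PDF1.2c, and none passed (limma adjusted p = 0.225 to 0.358).

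The defensin genes are near-identical copies, so how reads were split between them is uncertain, and they are not independent of each other. Without both libraries that stood apart the differences were still 1.31 to 1.70. The remaining members of the list were HEL, the chitinase HCHIB and the ethylene response factors ERF1 and ORA59, with differences of -0.05, -0.21, -0.53 and 0.27, which were 0.03, -0.17, -0.38 and -0.20 without both libraries. The GCC box, bound by ethylene response factors, was present in 3 of the 8 promoters of the list (37.5%), against 329 of 16330 tested protein-coding genes (2.01%). The 3 were those of PDF1.2, PDF1.2b and ORA59. The promoters of PDF1.3 and PDF1.2c, which also carried the list, held no GCC box in the 250 bases searched. In PDF1.2 and PDF1.2b, printed above, the box lay within 22 bases that both promoters share. Jasmonate genes as a list had a median of 0.00 over 22 tested members, with 11 positive and 11 negative, and CYP94C1, which inactivates jasmonoyl-isoleucine, was separated at -0.78.

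Immune receptors were also mostly negative. Of 16 intracellular receptors, 15 were negative with a median of -0.20. On the lower side 7 were separated and on the higher side 1, against 5.16% and 7.42% of all genes tested. RPM1 had 2.91, 2.80 and 2.83 in libraries labelled anac082, against 3.08, 3.24 and 3.17 in libraries labelled anac090 and 2.76 to 2.91 in wild type. ZAR1, which forms a resistosome, and the helper ADR1-L2 had differences of -0.40 and -0.50, and RPM1 had -0.32, all separated. Of 12 pattern recognition receptors and their partners, 11 were negative with a median of -0.34, among them the co-receptor BAK1 at -0.26 and the chitin receptor LYK5 at -0.49. Without both libraries that stood apart, 13 of 16 intracellular receptors and 9 of 12 pattern recognition receptors were negative, with medians of -0.09 and -0.12. ZAR1 was then at -0.21, ADR1-L2 at -0.22 and LYK5 at -0.27.

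Other lists of the defence response had smaller or reversed medians without the libraries that stood apart. Those libraries held the lowest mean level labelled anac082 and the highest labelled anac090 of each list in this paragraph. Leaving them out thus raises these lists by construction. Cysteine-rich receptor-like kinases had a median of -0.41, with 15 of 16 negative, but 0.22 without both libraries, with 5 negative. Glutathione S-transferases had a median of -0.76 over 12 tested members, but 0.04 without both libraries, and GSTU9 was separated at -1.24 and was at -0.46 without both libraries. The list of camalexin and indole glucosinolates had -0.36 over 15 tested members, and -0.10 without both libraries. MYB51, which controls indole glucosinolates, was separated at -0.59 and was at -0.35 without both libraries. The 3 tested wall-associated kinases were negative in each of these settings, with a median of -0.80 and of -0.17 without both libraries.

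**Figure D4:**
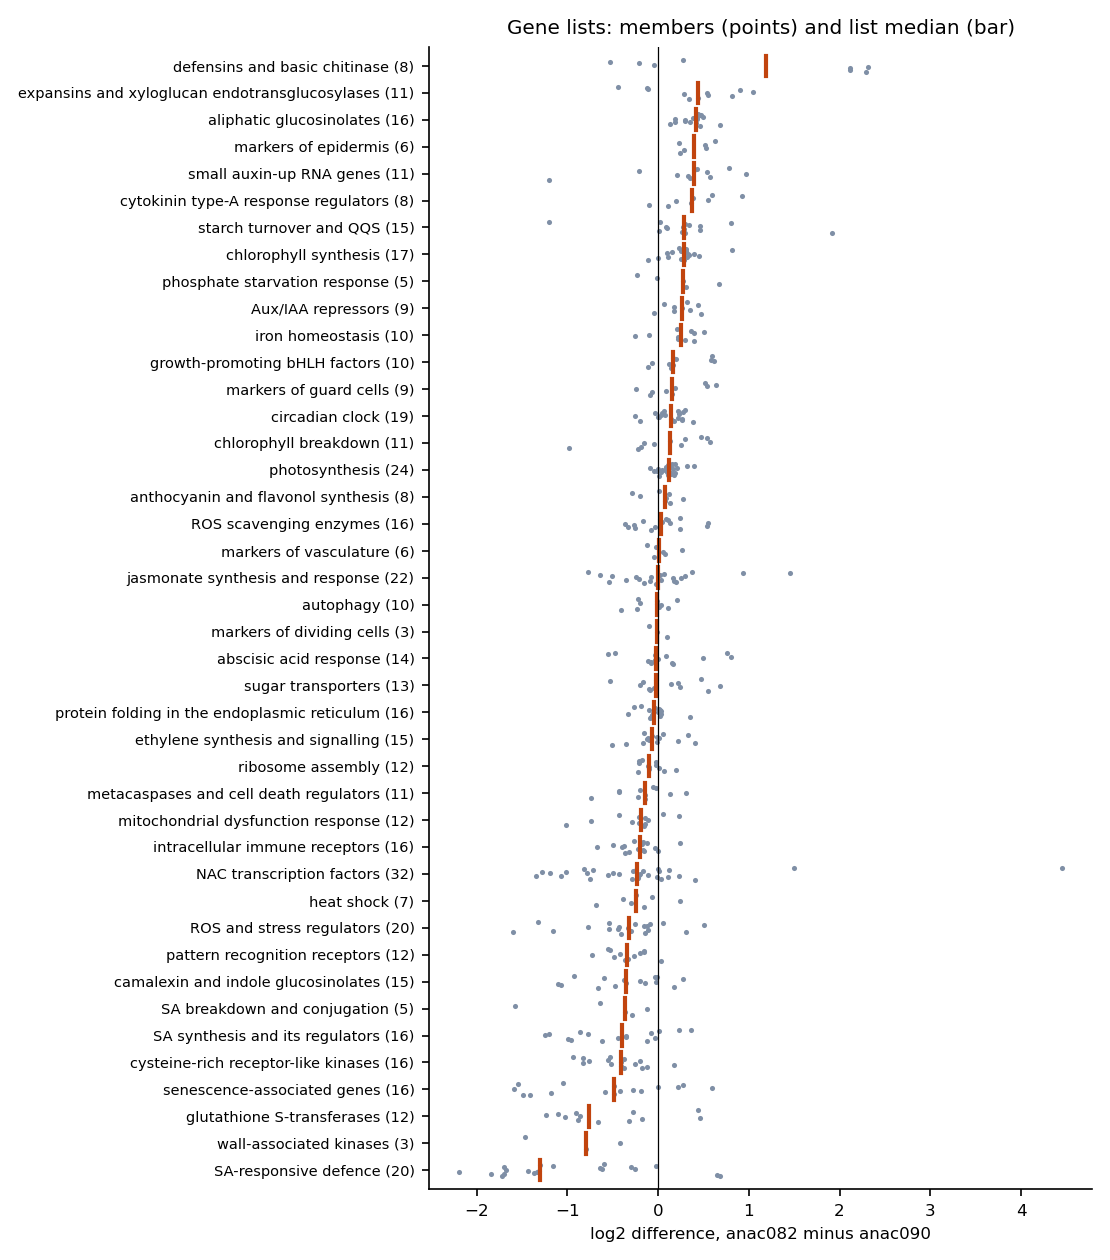
Log2 difference, anac082 minus anac090, of the tested members of each gene list with at least 3 of them; points are genes, vertical bars are list medians and the number tested is in parentheses. Defensins lie at the top with a median of 1.19 and SA-responsive defence at the bottom with -1.31, and the far right point of the NAC list is ANAC082.

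Lists of growth, plastid and starch genes had positive medians. Cytokinin type-A response regulators had 0.38 over 8 tested members, small auxin-up RNA genes 0.39 over 11, expansins and xyloglucan endotransglucosylases 0.44 over 11, chlorophyll synthesis 0.28 over 17 and starch turnover 0.29 over 15. Without both libraries that stood apart these medians were -0.13, -0.04, -0.16, 0.00 and -0.10, so the sign of 4 of these 5 lists was not kept. Those libraries held the highest mean level labelled anac082 and the lowest labelled anac090 of each of these lists. Leaving them out thus lowers these lists by construction. Some single members were more even. ARR8, a cytokinin response regulator, had 3.51, 3.4 and 3.41 in libraries labelled anac082, against 2.97, 2.86 and 2.85 in libraries labelled anac090 and 3.05 to 3.41 in wild type, and its difference of 0.55 ± 0.12 (limma adjusted p = 0.256) was 0.49 without both libraries.

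BEE2, a growth-promoting bHLH factor, had 5.18, 5.44 and 5.31 in libraries labelled anac082, against 4.99, 4.87 and 4.23 in libraries labelled anac090 and 5.78 to 5.80 in wild type. The lines did not overlap and both lay below wild type, with a difference of 0.61 that was 0.44 without both libraries and 0.38 without replicate 3 labelled anac090. In starch turnover, BAM3, the main beta-amylase of leaves at night, had 7.58, 7.59 and 7.44 in libraries labelled anac082, against 7.28, 7.17 and 6.77 in libraries labelled anac090, and its difference of 0.46 was 0.29 without both libraries. GBSS1, which makes amylose, had 4.38, 5.0 and 4.66 in libraries labelled anac082, against 3.64, 4.50 and 3.48 in libraries labelled anac090, with overlap. GUN4, a cofactor of chlorophyll synthesis, and ACD2, an enzyme of chlorophyll breakdown, were separated at 0.40 and 0.58, and NYE2, a relative of the dechelatase NYE1, was separated at -0.98. Without both libraries ACD2 was at 0.34 and NYE2 at -0.46.

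Photosynthesis genes had a median of 0.12 over 24 tested members, and -0.01 without both libraries. The 16 aliphatic glucosinolate genes were all positive with a median of 0.42, but none was separated, and the median was 0.12 without replicate 3 labelled anac090 and 0.05 without both libraries. MYB29 and MYB28, their regulators, had differences of 0.68 and 0.46 with overlap, and 0.18 and 0.06 without both libraries. Beside these, the summed markers of guard cells were 268 to 494 in libraries labelled anac082 and 172 to 327 in libraries labelled anac090, in back-transformed units. Those of epidermis were 277 to 386 in libraries labelled anac082 and 169 to 369 in libraries labelled anac090, and those of vasculature 296 to 320 in libraries labelled anac082 and 273 to 329 in libraries labelled anac090. As differences, all 6 epidermis markers were positive with a median of 0.40, and 0.07 without both libraries, and the 9 guard cell markers had a median of 0.15, and 0.01 without both libraries. Their part in the results was not tested. Iron homeostasis genes had a median of 0.26 over 10 tested members, which was -0.10 without replicate 3 labelled anac082 and 0.53 without both libraries that stood apart, and the transporter OPT3 was separated at 0.50.

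Protein folding in the endoplasmic reticulum depended on the libraries that stood apart. The mean log2 level of its 16 members was 5.33, 6.56 and 6.46 in libraries labelled anac082, against 6.04, 5.61 and 6.85 in libraries labelled anac090. The lines overlapped, and the median difference was -0.04. Without both libraries the median was 0.73, with BIP3, a stress-induced chaperone, at 1.45, against 0.35 with all libraries. In that setting 14 of 16 members had an unadjusted p under 0.05 by limma on the higher side, against 4.41% of all genes. The libraries left out held the lowest level labelled anac082, 5.33, and the highest labelled anac090, 6.85. Leaving them out thus raises this list by construction, and the count is not a test of it. Ribosome assembly genes, listed because ANAC082 is tied to disturbed ribosome synthesis, had a median of -0.10 over 12 tested members, and 0.09 without both libraries, and with all libraries none was separated or under an unadjusted p of 0.05. With all libraries the median was 0.01 for vasculature markers, -0.02 for dividing cells, -0.01 for autophagy, -0.02 for abscisic acid, -0.03 for sugar transporters and -0.07 for ethylene. Without both libraries these were -0.12, 0.18, 0.16, -0.14, -0.01 and -0.14, with 10 of 10 autophagy genes positive and 6 of 6 vasculature markers negative.

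Because several histone genes were among the lowest p on the lower side, all genes described as core or linker histones were listed, a choice made after their values were seen. Of 47 in the table, 39 were tested, 25 were negative and 14 positive, with a median of -0.15. On the lower side 12 had an unadjusted p under 0.05 and 9 were separated, and on the higher side 0 and 0. Of all genes tested, 5.27% were lower at that p and 5.16% were separated lower. HIS1-3, AT3G53730, AT4G40040, AT2G28720 and AT5G10980, which were among the lowest p and prompted the list, are included in both lower counts. These counts are thus partly set by the choice of the list. AT3G53730, which codes for histone H4, had 4.97, 4.72 and 4.73 in libraries labelled anac082, against 5.77, 5.4 and 5.51 in libraries labelled anac090 and 5.48 to 5.72 in wild type. AT4G40040, which codes for histone H3.3, had 8.18, 7.92 and 7.96 in libraries labelled anac082, against 8.72, 8.50 and 8.64 in libraries labelled anac090 and 8.36 to 8.58 in wild type. In both genes the libraries labelled anac082 were below all libraries labelled anac090 and wild type, with differences of -0.75 ± 0.12 and -0.60 ± 0.10 (limma adjusted p = 0.0941 each).

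AT2G28720, a histone H2B gene, and AT5G10980, a second H3.3 gene, were separated at -0.59 and -0.45. The H3.3 genes, of which AT4G40030 had a difference of -0.08, code for the same protein and share sequence, so how reads were split between them is uncertain. Summed over the 3 genes and returned to the log2 scale, they were at 9.33, 9.14 and 9.18 in libraries labelled anac082, against 9.69, 9.55 and 9.61 in libraries labelled anac090 and 9.43 to 9.6 in wild type, with no overlap. Without both libraries that stood apart, 29 of 39 histone genes were negative, against 47.2% of all genes in that setting, and the median was -0.20. There 16 had an unadjusted p under 0.05 on the lower side, against 3.07% of all genes, and HIS1-3 was at -1.70. The genes that prompted the list are part of these counts, which are not a test of it. The median of the 39 histone genes against wild type was -0.32 for libraries labelled anac082 and -0.10 for libraries labelled anac090. Both were against the same 3 wild type libraries. Markers of dividing cells summed to 5.11 to 6.27 in libraries labelled anac082 and 5.72 to 6.46 in libraries labelled anac090, and their part in the result was not tested.

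Against wild type, 5 genes were higher (0.0297%) and 3 lower (0.0178%) in libraries labelled anac082 by limma, and 616 were higher (3.66%) and 613 lower (3.65%) in libraries labelled anac090. These comparisons share the wild type libraries, so only the values of the 8 genes past the threshold for the line labelled anac082 are given side by side, ANAC082 and QQS having been described. CYP21-2, a cyclophilin, had 3.74, 3.55 and 3.5 in libraries labelled anac082, against 3.62, 3.77 and 3.60 in libraries labelled anac090, and averaged 0.15 ± 0.13 in wild type (SD, n = 3). The lines overlapped, far above wild type, and differed by -0.07 ± 0.11. AT3G05170 had 1.99, 2.21 and 1.97 in libraries labelled anac082, against 2.24, 2.16 and 2.39 in libraries labelled anac090, and was listed at 0 in all 3 wild type libraries. AT3G29644 had 3.31, 3.16 and 2.98 in libraries labelled anac082, against 3.29, 3.33 and 3.22 in libraries labelled anac090 and 1.94 to 2.26 in wild type.

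HEI10, a ligase of meiotic crossing over, had 0.64, 0.55 and 0.60 in libraries labelled anac082, against 0.68, 1.01 and 0.99 in libraries labelled anac090 and 2.19 to 3.92 in wild type. Both lines were low, and their difference of -0.30 ± 0.34 did not pass (limma adjusted p = 0.723). PSF1, a subunit of the GINS complex of DNA replication, had 1.85, 2.23 and 2.18 in libraries labelled anac082, against 3.22, 3.37 and 2.81 in libraries labelled anac090 and 3.16 to 3.4 in wild type. Here only the line labelled anac082 was below wild type, and the difference of -1.04 ± 0.17 had a limma adjusted p of 0.0941. SADHU3-2, a retroposon, had 0.73, 1.39 and 1.59 in libraries labelled anac082, against 0.31, 0.21 and 0.22 in libraries labelled anac090 and 2.79 to 3.06 in wild type, with a difference of 0.99 ± 0.22 (limma adjusted p = 0.246).

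**Figure D5:**
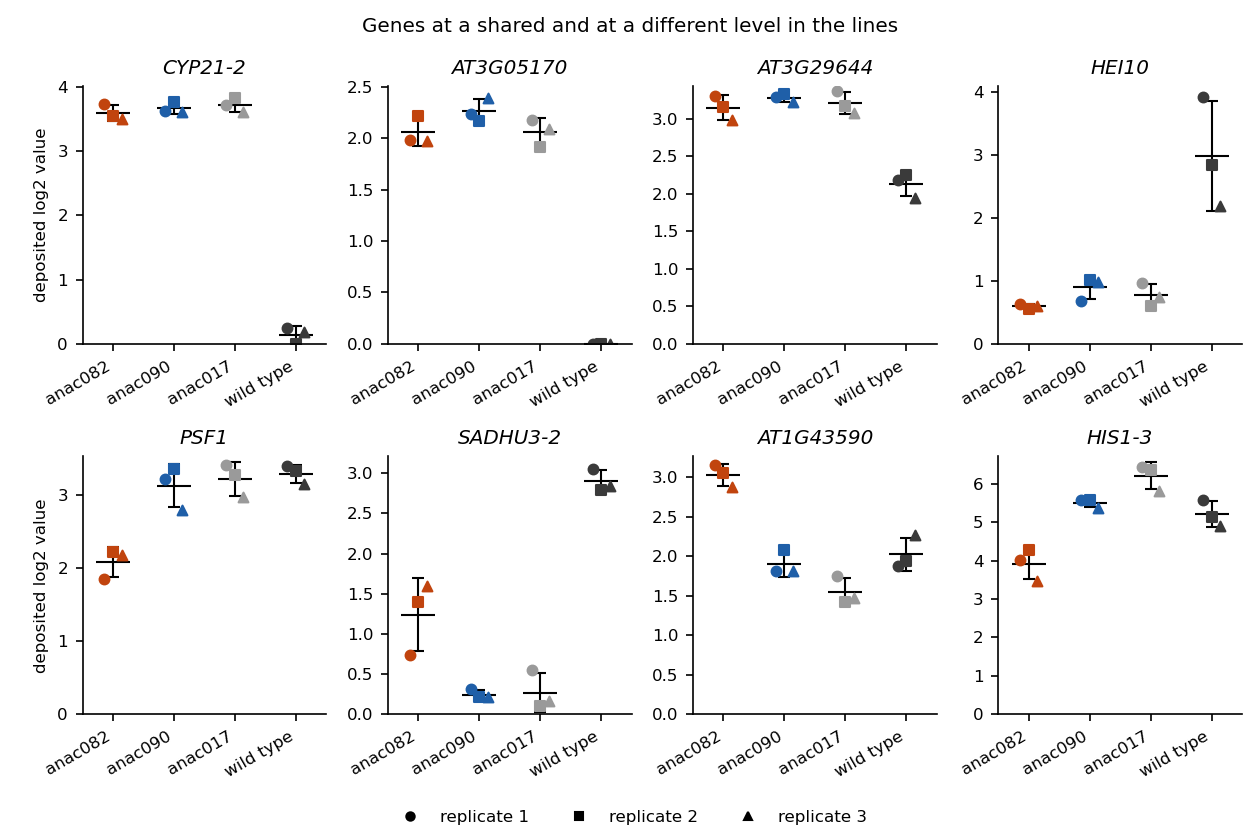
Deposited log2 value of 8 genes in every library, by labelled genotype. Points are libraries, lines are means and whiskers are SD over 3 libraries. CYP21-2, AT3G05170, AT3G29644, HEI10, PSF1 and SADHU3-2 passed the threshold against wild type in the line labelled anac082. AT1G43590 and HIS1-3, also shown, did not. In the upper row both lines lie on the same side of wild type, and the lines overlap except for HEI10. In the lower row the values of the lines do not overlap, but none of these genes passed the threshold between the lines. There PSF1 lies at 1.85 to 2.23 in libraries labelled anac082 and 2.81 to 3.37 in libraries labelled anac090.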

How the data were processed

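The authors deposited a table of log2 values of 33726 entries, per the file headers with a column for each of the 12 libraries. Stranded libraries of poly(A) RNA were sequenced, per the labels' protocols; TopHat, Cufflinks, CASAVA 1.8.2 and the build TAIR10 stand in the submitters' processing notes. The sorted values of the libraries differed by at most 0.0818 at the same rank, so they had been quantile normalized. The reading as log2(abundance + 1) is from the values, and a fold change on this scale understates low genes. Coordinates are TAIR10 as in the table, promoters those of TAIR10.1. Entries without an identifier (529, 1.57%) were left out, as were genes with a mean back-transformed value under 1.

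limma 3.58.1 in R 4.3.3 (lmFit, contrasts.fit, eBayes with trend) was fitted to all 12 libraries in 1 model of 4 groups, with no replicate block, and adjusted by Benjamini-Hochberg over 16817 genes at 0.05, two-sided. The script was tested on simulated data. Of 622 entries in 47 gene lists, 614 were paired with the table and 539 tested. Members and lists were chosen with earlier results of these data known. Named genes were the targeted and called genes, the 12 smallest p in each direction among separated genes above the median mean, and up to 4 of the smallest p of each list. Alternatives covered a replicate block, the 6 libraries alone, quality weights, robust moderation, filters, pseudocounts, a shift, thresholds and left-out libraries.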

Additional observations from a re-analysis of the deposited data

How the results depend on the processing

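ANAC082 passed under each of the alternatives run. The 2 higher and 0 lower genes were unchanged with only the 6 libraries compared, robust moderation, a mean of at least 5, a pseudocount of 0.1, a shift of each library and a threshold of 0.01. A threshold of 0.10 gave 7 higher and 8 lower. Library quality weights gave 1988 higher and 1813 lower, with replicate 1 labelled anac090 weighted 28.2 and its fellows 0.23 and 0.13, so these calls rest on a single library; TGG2 then had -0.0091 in place of 0.64. A pseudocount of 5 gave 3 higher, AT1G43590 being added. With no filter on low values 1 gene was lower, AT1G27990 and AT5G53742 being added. Leaving out libraries in turn gave 1 to 11 higher and 0 to 6 lower genes, with the highest numbers without replicate 2 labelled anac090 and 2 lower without replicate 1 labelled anac090, and without both libraries that stood apart 1 was higher. Correlations over all genes tested between libraries of the lines with the same replicate number were 0.50, -0.31 and 0.42. Pairing by number was thus not borne out for every number, but these correlations cannot settle it. In the clock difference given above, replicate 1 was the lowest of both lines and of wild type. The replicate block added HIS1-3 as 1 lower gene, so 2 were higher and 1 lower. HIS1-3 then had a limma adjusted p of 0.0105, against 0.0105 to 0.48 over the alternatives other than weights. Among named genes, 81 results passed only under an alternative, most of them under the weights, and 3 no longer passed, all of QQS. Depth is unknown and limits low genes most; the cause of these shifts was not tested.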
